A study of Mus musculus with 24 samples.

Results

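The neurotrophin genes described here are Bdnf, Ntf3 and Gdnf, which encode secreted growth factors, Ntrk2 and Ntrk3, which encode receptor tyrosine kinases, and Sort1, which encodes the sorting receptor sortilin. They were chosen by name, by matching the gene name column of the expression table, and these 6 genes were found among its 54532 genes, each in 1 row. Gdnf belongs to a different growth factor family and signals through other receptors, but it is grouped with the neurotrophins as a survival factor for neurons. All 6 genes passed the filter for low values and were among the 27286 genes tested.

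Brain hemispheres of 24 male wild-type C57BL/6J mice, aged 8 to 12 weeks, were profiled by bulk sequencing of polyadenylated RNA. The mice formed 4 groups of 6. The vehicle group received saline by subcutaneous minipump, and the angiotensin II group received angiotensin II, a hormone that raises blood pressure, at 0.7 mg/kg/day, each for 14 days and each with an intravenous injection of saline. The vehicle + AEC and angiotensin II + AEC groups had the same infusions and were injected in place of saline with 1000000 human amnion epithelial cells (AECs), cells of the inner fetal membrane taken from term placentae. All mice therefore carried a pump and had a tail vein injection, and the injected cells were from another species in hosts with an intact immune system. The comparisons address how the infusion and the cells alter gene expression in the brain.

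Neurotrophins are made as precursors that are cleaved to the mature factor inside the cell or after release. Mature BDNF binds TrkB, the product of Ntrk2, and neurotrophin-3, the product of Ntf3, binds mainly TrkC, the product of Ntrk3. Both receptors promote neuronal survival and synaptic plasticity, and both genes also give truncated forms without the kinase domain. Sortilin binds precursor forms and directs BDNF to the regulated secretory pathway.

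Each value is FPKM, the fragments counted on a gene relative to its length and to the size of the library. For the 6 genes this length was that of all annotated exons together, such as 30170 bases for Ntrk3 with its 20 transcripts. Single transcripts may be shorter, so the order of genes by FPKM depends on this choice of length. The fragments (reads) behind each value were recovered from the table, and totals were 16536449 to 25308700 reads per mouse. The libraries fell into 2 sets by the sum of their FPKM values. In 6 libraries the sum was 338334 to 348597, and in the other 18 it was 277116 to 298301. A higher sum means that more of the reads lay on shorter genes. The 6 libraries were spread over the groups, with 2 each in the vehicle and angiotensin II + AEC groups and 1 each in the other groups. They were not spread over the replicate numbers, since all 6 were numbered 5 or 6. Angiotensin II replicate 6 and vehicle + AEC replicate 5 were among the 18. Reads of mitochondrial genes made up 6.17% to 6.85% of the 6 libraries against 4.79% to 5.75% of the 18. Brain marker genes were present throughout, with a mean of 220 FPKM for Slc17a7 of excitatory neurons and 521 FPKM for Mbp of oligodendrocytes, and none of the marker genes of 15 cell types and regions was at 0 in all mice. In 1 library of the angiotensin II group the pituitary hormone genes summed to 1580 FPKM, against at most 28.5 FPKM in the vehicle group and less in both AEC groups.

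By FPKM, Sort1 had the highest level of the 6 genes, followed by Ntrk2, Ntrk3, Bdnf, Ntf3 and Gdnf. Over all 24 mice the means were 56.5 ± 9.69 FPKM for Sort1, 28.4 ± 4.39 for Ntrk2, 3.89 ± 0.510 for Ntrk3, 3.02 ± 0.320 for Bdnf, 1.42 ± 0.460 for Ntf3 and 0.221 ± 0.0927 for Gdnf (SD, n = 24). The lowest Sort1 value, 37.0 FPKM, was above the highest Ntrk2 value, 31.8 FPKM. Ntrk3 and Bdnf were close. In the 18 libraries Ntrk3 ranged from 3.72 to 4.43 FPKM and Bdnf from 2.63 to 3.52 FPKM, without overlap, but in the 6 libraries of high total FPKM the ranges of 2.83 to 3.20 and 2.09 to 3.31 FPKM overlapped. Bdnf and Ntf3 likewise overlapped only in the 6 libraries, where Ntf3 reached 2.32 FPKM. The highest Gdnf value, 0.431 FPKM, was below the lowest Ntf3 value, 0.634 FPKM.

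The reads behind these levels differed widely between the 6 genes. Ntrk2 rested on 6588 to 13877 reads per mouse and Sort1 on 4812 to 11472, whereas Ntf3 rested on 22 to 84 and Gdnf on 3 to 32. Within groups of the 18 libraries, the coefficient of variation between mice was 1.99% for Ntrk2, 3.67% for Sort1, 5.27% for Ntrk3 and 7.80% for Bdnf. It was 29.9% for Ntf3 and 34.03% for Gdnf. Counting alone gives 0.933% for Ntrk2, 1.05% for Sort1, 2.03% for Ntrk3, 5.21% for Bdnf, 15.98% for Ntf3 and 25.9% for Gdnf. Of the 6 genes, Gdnf had a spread between mice closest to that of counting, as a ratio.

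No difference in the level of the 6 genes passed the test across all genes, either with angiotensin II or with AECs. With limma, 0 of the 6 genes had an adjusted p under 0.05 in any of the 5 contrasts (the 4 comparisons of groups and the interaction). At an unadjusted p under 0.05 there was 1 call in 1 comparison, that of Gdnf between angiotensin II + AEC and vehicle + AEC. An unadjusted p under 0.05 was found for 2.21% of the 27286 genes tested in angiotensin II against vehicle, 2.54% in angiotensin II + AEC against angiotensin II, 2.41% in vehicle + AEC against vehicle, 2.66% in angiotensin II + AEC against vehicle + AEC and 2.54% for the interaction, and an adjusted p under 0.05 for 0% of them in each. With 1 call in 30 tests, the 6 genes were near that background. These comparisons share groups of mice, so they are not independent of each other. Fold changes are given as log2 of FPKM + 0.1, and for genes at low levels the added 0.1 makes them smaller than the change in FPKM itself.

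**Figure D1:**
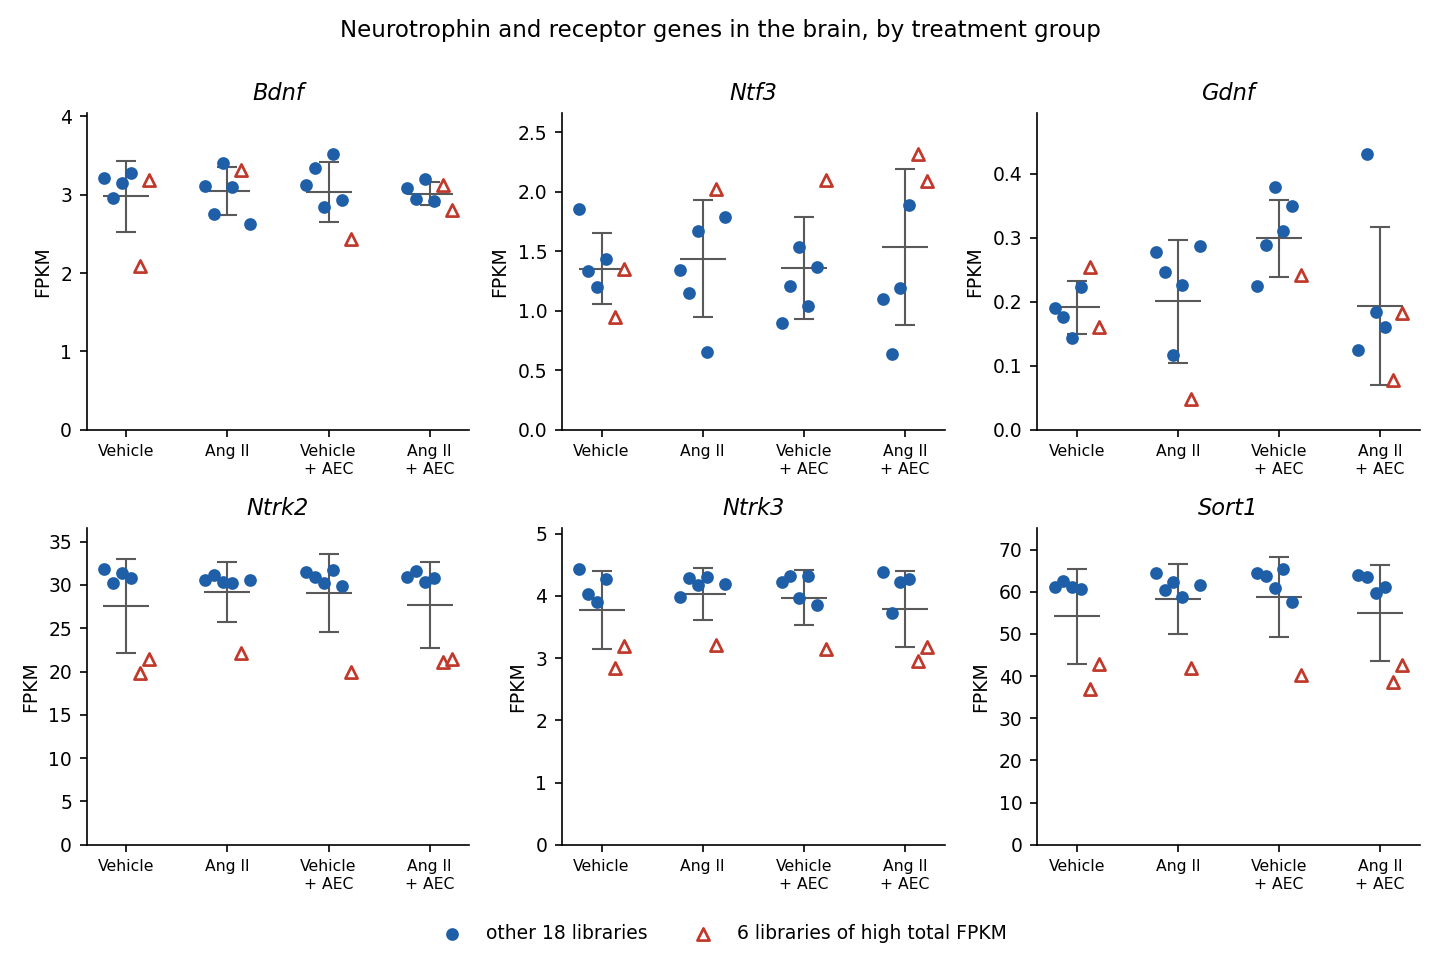
Level of each gene in FPKM (vertical axis, from 0) in the 6 mice of each group. Grey bars give the group mean ± SD, filled circles are the 18 libraries of lower total FPKM and open triangles the 6 of high total FPKM. For Ntrk2, Ntrk3 and Sort1 all triangles lie below all circles, with Sort1 at most 42.8 FPKM in the triangles and at least 57.7 FPKM in the circles, and the groups overlap in every panel.

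Bdnf encodes brain-derived neurotrophic factor, which acts at synapses and is transcribed in response to neuronal activity. It lies on chromosome 2 at chr2:109674700-109727007 on the plus strand (GRCm38), with 11 annotated transcripts and 6217 bases of exon. Its level was 2.09 to 3.28 FPKM with vehicle (median 3.17), 2.63 to 3.40 with angiotensin II (median 3.11), 2.43 to 3.52 with vehicle + AEC (median 3.03) and 2.81 to 3.21 with angiotensin II + AEC (median 3.01). The 4 ranges overlapped throughout, and the lowest mouse of the series was in the vehicle group. Between angiotensin II and vehicle the log2 fold change was 0.04 ± 0.10 (SE; limma, unadjusted p = 0.679, exact permutation p = 0.773). Its 95% confidence interval ran from a change of -11.04% to 19.3%. For angiotensin II + AEC against angiotensin II the fold change was -0.01 on the log2 scale, with an interval from -14.4% to 14.8%. Changes of Bdnf within these bounds were not excluded with 6 mice per group. An antisense gene that overlaps Bdnf, Gm45346, had a mean of 0.0294 FPKM.

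Ntf3 encodes neurotrophin-3, and lies on chromosome 6 at chr6:126101412-126166910 on the minus strand, with 3 transcripts and 1714 bases of exon. It ranged from 0.951 to 1.85 FPKM with vehicle (median 1.34), from 0.658 to 2.03 with angiotensin II (median 1.505), from 0.897 to 2.10 with vehicle + AEC (median 1.28) and from 0.634 to 2.32 with angiotensin II + AEC (median 1.54). No group stood apart from another. The log2 fold changes lay between -0.02 in vehicle + AEC against vehicle and 0.10 in angiotensin II + AEC against vehicle + AEC, with SE of 0.27 (limma). At 22 to 84 reads per mouse the intervals were wide, from -33.5% at one end to 58.9% at the other, and changes within them were not excluded.

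Gdnf encodes glial cell line-derived neurotrophic factor, which supports dopaminergic and motor neurons and is made at low levels in the adult brain. It lies on chromosome 15 at chr15:7810846-7837575 on the plus strand, with 1 transcript of 3674 bases. Gdnf was the gene with the largest differences between groups, at very few reads. In the vehicle group it ranged from 0.144 to 0.253 FPKM (median 0.183, 10 to 16 reads), and in the vehicle + AEC group from 0.224 to 0.380 FPKM (median 0.300, 15 to 26 reads). With angiotensin II it ranged from 0.0489 to 0.287 FPKM (median 0.237, 3 to 24 reads) and with angiotensin II + AEC from 0.0772 to 0.431 FPKM (median 0.171, 6 to 32 reads). Of the 6 vehicle + AEC mice, 4 were above every vehicle mouse, and 5 of the 6 angiotensin II + AEC mice were below every vehicle + AEC mouse, while the other one was above all of them.

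Gdnf was 0.299 ± 0.0605 FPKM in vehicle + AEC mice against 0.191 ± 0.0407 FPKM in vehicle mice (SD, n = 6 each). The log2 fold change was 0.45 ± 0.24 (SE; limma, unadjusted p = 0.0718, adjusted p = 0.995), with an interval from -2.96% to 92.9%. The exact permutation test of these 12 mice gave p = 0.00866 (two-sided, not adjusted), where the smallest p that 6 against 6 mice allow is 0.00216. It was the only one of 24 such tests (6 genes in 4 comparisons) with p under 0.05. In angiotensin II + AEC mice the mean was 0.193 ± 0.123 FPKM, and the log2 fold change against vehicle + AEC was -0.52 ± 0.24 (SE; limma, unadjusted p = 0.0411, adjusted p = 1), with an interval from -50.5% to -1.56%. The exact permutation p was 0.0519. In the 18 libraries alone the log2 fold changes were 0.53 (limma, unadjusted p = 0.0397) for vehicle + AEC against vehicle and -0.41 (unadjusted p = 0.103) for angiotensin II + AEC against vehicle + AEC. The interaction, which tests whether the effect of AECs differed with the infusion, had a log2 value of -0.50 ± 0.34 (SE; limma, unadjusted p = 0.154), so a difference between the infusions was not shown. Of the 99 genes in the 15 marker lists, 0 had an adjusted p under 0.05 in any contrast. At an unadjusted p under 0.05 by limma, 1 meningeal gene was lower in vehicle + AEC than vehicle. In angiotensin II + AEC against vehicle + AEC, 1 meningeal and 1 endothelial gene were higher, and 1 meningeal gene passed for the interaction. Of all genes tested, 2.41%, 2.66% and 2.54% passed in the same contrasts, so these counts among 99 genes did not exceed the background. The part of the marker genes in the Gdnf values was not tested.

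Single mice weighed on the Gdnf values. The unadjusted p for angiotensin II + AEC against vehicle + AEC stayed under 0.05 in 3 of the 12 fits that each left out 1 mouse, those without vehicle + AEC replicate 1, vehicle + AEC replicate 6 or angiotensin II + AEC replicate 2. It rose to 0.118 without angiotensin II + AEC replicate 5, where the log2 fold change was -0.39. Without angiotensin II + AEC replicate 2, the mouse at 0.431 FPKM, it fell to 0.0039 at a log2 fold change of -0.71. Leaving out that mouse or angiotensin II replicate 5, the mouse with 3 reads, also took the interaction under 0.05 (unadjusted p = 0.033 and 0.0337, limma). Between angiotensin II and vehicle, Gdnf differed by -0.02 on the log2 scale, with an interval from -30.0% to 39.2%.

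Ntrk2, the TrkB gene, lies on chromosome 13 at chr13:58806569-59133970 on the plus strand, with 10 transcripts, 7 of them coding, and 19292 bases of exon. It ranged from 19.9 to 31.8 FPKM with vehicle (median 30.6), 22.2 to 31.1 with angiotensin II (median 30.5), 19.997 to 31.8 with vehicle + AEC (median 30.6) and 21.1 to 31.6 with angiotensin II + AEC (median 30.6). The medians were nearly the same and the ranges overlapped. Each group had 1 or 2 mice between 19.9 and 22.2 FPKM, and these were the libraries of high total FPKM. A gene-level value sums full-length and truncated receptor transcripts, so a shift between the forms would not be seen.

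Ntrk3, the TrkC gene, lies on chromosome 7 at chr7:78175959-78738012 on the minus strand, with 20 transcripts, 6 of them coding, and 30170 bases of exon. It ranged from 2.83 to 4.43 FPKM with vehicle (median 3.97), 3.20 to 4.30 with angiotensin II (median 4.19), 3.15 to 4.32 with vehicle + AEC (median 4.09) and 2.96 to 4.39 with angiotensin II + AEC (median 3.97). No group was separate from the rest. Of the 4 genes that overlap Ntrk3, 2 lie on the opposite strand, and the overlapping gene of highest level, Gm9885, had a mean of 2.18 FPKM. The use of strand in counting is not given in the sources used here. The reads of Ntrk3 and of the genes that overlap it may therefore not have been told apart.

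Sort1 lies on chromosome 3 at chr3:108284082-108361511 on the plus strand, with 3 transcripts, 2 of them coding, and 7569 bases of exon. It ranged from 37.0 to 62.5 FPKM with vehicle (median 60.8), 41.8 to 64.5 with angiotensin II (median 61.0), 40.2 to 65.4 with vehicle + AEC (median 62.2) and 38.5 to 64.0 with angiotensin II + AEC (median 60.5). As with the kinase receptors, the groups overlapped and each held low values from the libraries of high total FPKM.

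For Ntrk2, Ntrk3 and Sort1 together, the 12 log2 fold changes of the 4 comparisons lay between -0.11 and 0.13, and the lowest unadjusted p was 0.413 (limma). Their 95% intervals reached from -26.1% to 37.3%. With the library set as a term in the fit, the same 12 fold changes lay between -0.02 and 0.03 and the intervals reached only from -8.13% to 9.31%. In the 18 libraries alone the intervals reached from -8.77% to 9.32%. For these 3 genes, each interval of the 4 comparisons thus stayed under 10% in either direction in the fit with the library set. These are intervals of single comparisons, and the library set was defined from the same FPKM values. For the interaction in that fit, the interval of Ntrk3 was wider, from -11.4% to 7.72%.

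**Figure D2:**
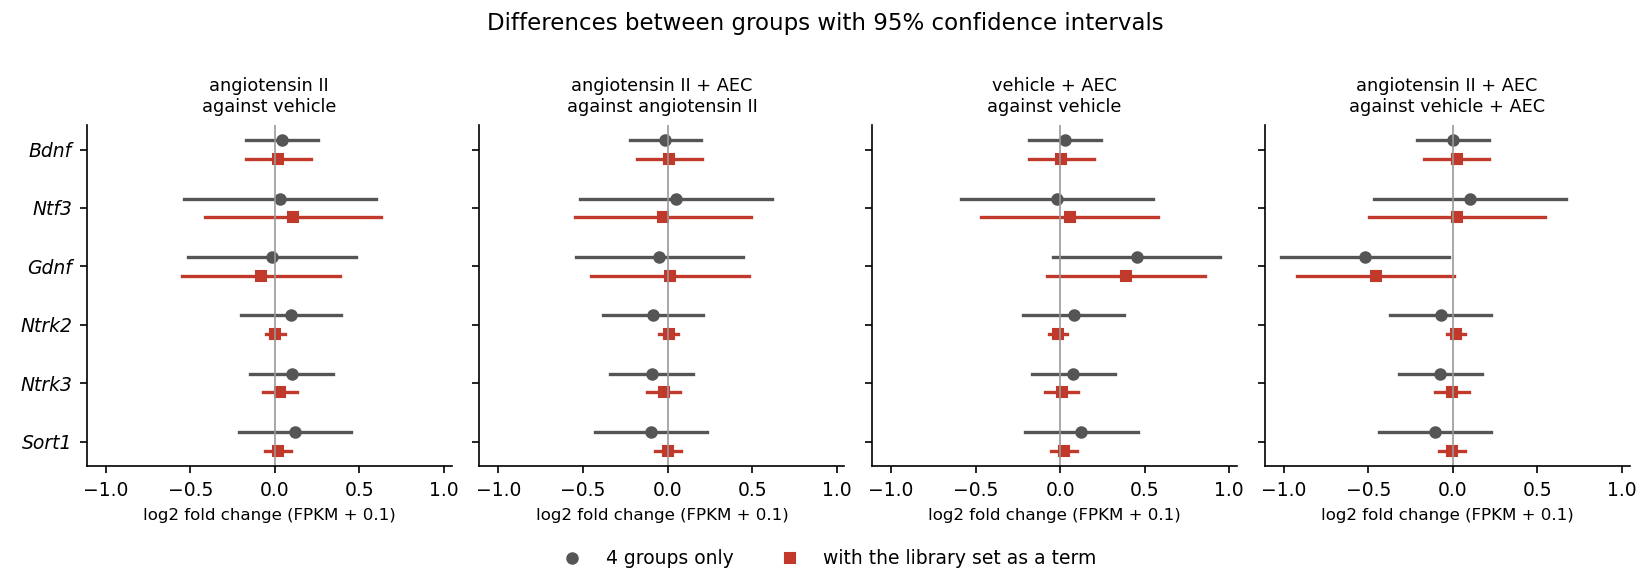
Log2 fold change on FPKM + 0.1 (horizontal axis) for each gene in the 4 comparisons of groups, with 95% confidence intervals from limma. Grey circles are the fit with the 4 groups only and red squares the fit with the library set as a term, under which the intervals of Ntrk2, Ntrk3 and Sort1 lie between -0.12 and 0.13, while those of Ntf3 and Gdnf stay wide.

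Levels of Ntrk2, Ntrk3 and Sort1 differed more between the library sets than between the treatment groups. Because the sets were defined from the FPKM sums of the same libraries, the values are a description without a test. Sort1 was 40.5 ± 2.33 FPKM in the 6 libraries of high total FPKM (SD, n = 6) and 61.9 ± 2.11 FPKM in the other 18 (SD, n = 18), or 65.4% of their mean. Ntrk2 was at 68.2% and Ntrk3 at 74.2%, and for all 3 genes the sets did not overlap. Bdnf was at 91.7%, Gdnf at 66.6% and Ntf3 at 139.6%, each with overlap. Of all genes tested, 27.5% did not overlap between the sets and 16.3% did so with the lower values in the 6 libraries, against 3 of the 6 genes here. Among 67 other genes of neurotrophin and GDNF signalling, described below, 21 (31.3%) were lower in the 6 libraries without overlap and 15 were higher. The separation was thus not particular to the 6 genes. In bulk tissue, fewer cells of a type and less RNA per cell cannot be told apart. Summed markers differed between the sets as well, for cell types of many kinds. The 6 libraries were chosen for a higher sum of FPKM, so higher sums of gene lists follow in part from that choice. These sums are therefore no measure of the cell mix. Of the 15 marker lists, 8 had higher sums in the 6 libraries without overlap (excitatory, striatal and dentate granule neurons, oligodendrocytes, microglia, endothelial cells, choroid plexus and meninges) and 0 had lower sums without overlap. Of their 99 genes, 26 were higher and 13 lower without overlap. Excitatory neuron markers summed to 343 to 410 FPKM in the 6 libraries and 244 to 296 FPKM in the 18, with 2 of 6 genes higher and 2 lower. Oligodendrocyte markers summed to 1493 to 1807 FPKM in the 6 libraries and 1203 to 1469 FPKM in the 18, with 5 of 7 genes higher and 0 lower without overlap. Astrocyte markers summed to 665 to 720 FPKM against 599 to 671 FPKM, with 1 of 7 genes higher and 3 lower without overlap. The part of the cell mix in the receptor values was not tested.

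The difference between the library sets varied with gene length over the table, falling from class to class above 1000 bases. Among 13649 genes with a mean of at least 1 FPKM, the median log2 difference of the 6 libraries from the 18 was 0.40 for genes of up to 1000 bases, 0.46 for genes of 1000 to 2000 bases, the class of Ntf3, and 0.16 for genes of 2000 to 4000 bases, the class of Gdnf by length. It was -0.20 for genes of 4000 to 8000 bases, the class of Bdnf and Sort1, and -0.67 for genes over 16000 bases, the class of Ntrk2 and Ntrk3. The own values were 0.46 for Ntf3, -0.37 for Gdnf, -0.14 for Bdnf, -0.61 for Sort1, -0.55 for Ntrk2 and -0.41 for Ntrk3. Ntf3 was thus close to the median of its class. Gdnf was below the lower quartile of its class, which was -0.16, with the opposite sign to the class median. Bdnf and Ntrk2 lay between the quartiles of their classes. Sort1 was below the lower quartile of its class, which was -0.51, whereas Ntrk3 was above the upper quartile of its class, which was -0.45. The SE was 0.030 for Sort1, 0.039 for Ntrk3, 0.185 for Gdnf and 0.207 for Ntf3. The places of Ntrk3, Gdnf and Ntf3 within their classes are therefore uncertain. Gdnf, at a mean of 0.221 FPKM, was also below the level of the genes that make up its class.

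**Figure D3:**
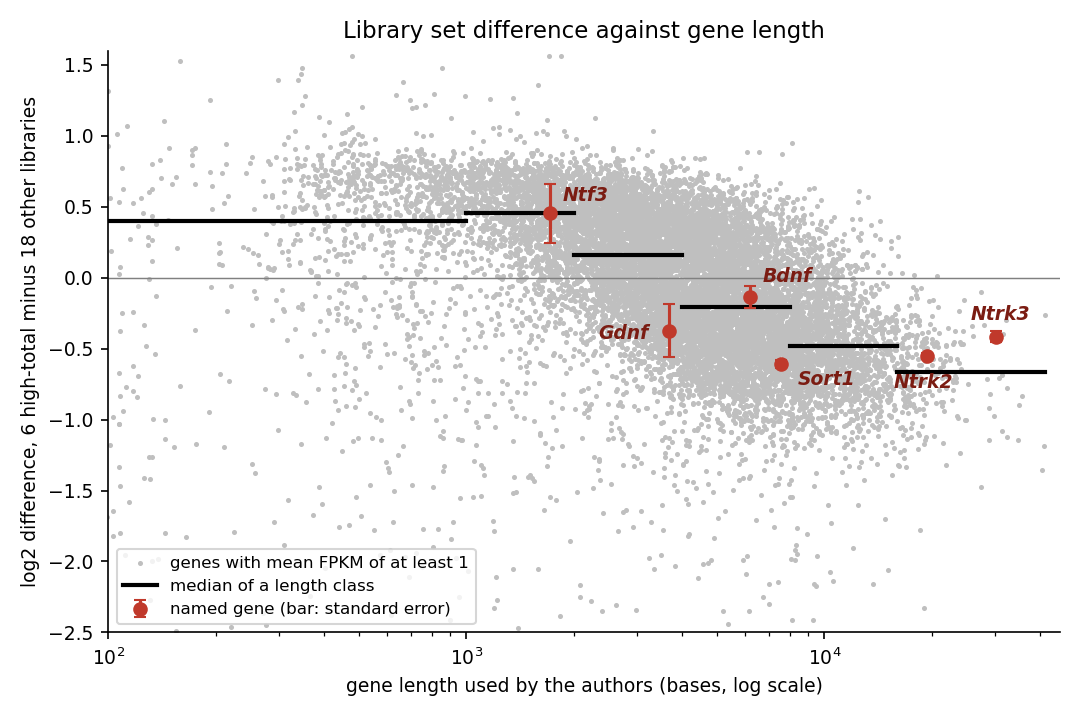
Log2 difference of the 6 libraries of high total FPKM from the other 18 (vertical axis) against gene length in bases (log scale). Grey points are genes with a mean of at least 1 FPKM, black lines the medians of length classes, and red points the 6 genes with standard errors, running from 0.46 for the short Ntf3 to -0.61 for Sort1. A total of 137 points lie outside the vertical range and 146 genes are shorter than 100 bases.

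The other genes of neurotrophin and GDNF signalling were followed in a list of 67 genes, with ligands, receptors, proteases that process precursors, adaptors and kinases, and transcriptional regulators of Bdnf. All 67 passed the filter. With limma, 0 of them had an adjusted p under 0.05 in any contrast. At an unadjusted p under 0.05, 1 of 67 passed with a positive fold change and 0 with a negative one in angiotensin II against vehicle and in angiotensin II + AEC against vehicle + AEC, which is at or below the background of 2.21% and 2.66%, and 0 of 67 passed in the other contrasts. The median log2 fold changes of the list were 0.03 and -0.0003 in these comparisons, beside 0.02 and -0.01 for all genes tested. For vehicle + AEC against vehicle the median was 0.04 beside 0.01, and for angiotensin II + AEC against angiotensin II it was -0.003 beside -0.02.

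Partners of the 6 genes showed no call. These 4 were chosen after their values were seen, for their roles. Plat, which encodes tissue plasminogen activator, a protease upstream of plasmin, which can cleave the BDNF precursor, had a mean of 5.99 ± 0.617 FPKM over all mice, and between angiotensin II and vehicle its log2 fold change of 0.07 had an interval from -7.19% to 19.5% (limma). Ret, the kinase receptor of GDNF, had a mean of 3.78 ± 0.293 FPKM with an interval from -4.96% to 16.8%. Gfra1, the coreceptor that binds GDNF, had a mean of 5.50 ± 1.58 FPKM with an interval from -22.3% to 76.8%. Gfra1 was at 46.6% in the 6 libraries of high total FPKM, a larger difference than for any of the 6 genes, while Ret was at 102%. Ntf5, which encodes neurotrophin-4, the other ligand of TrkB, was low at 0.147 ± 0.0989 FPKM.

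**Figure D4:**
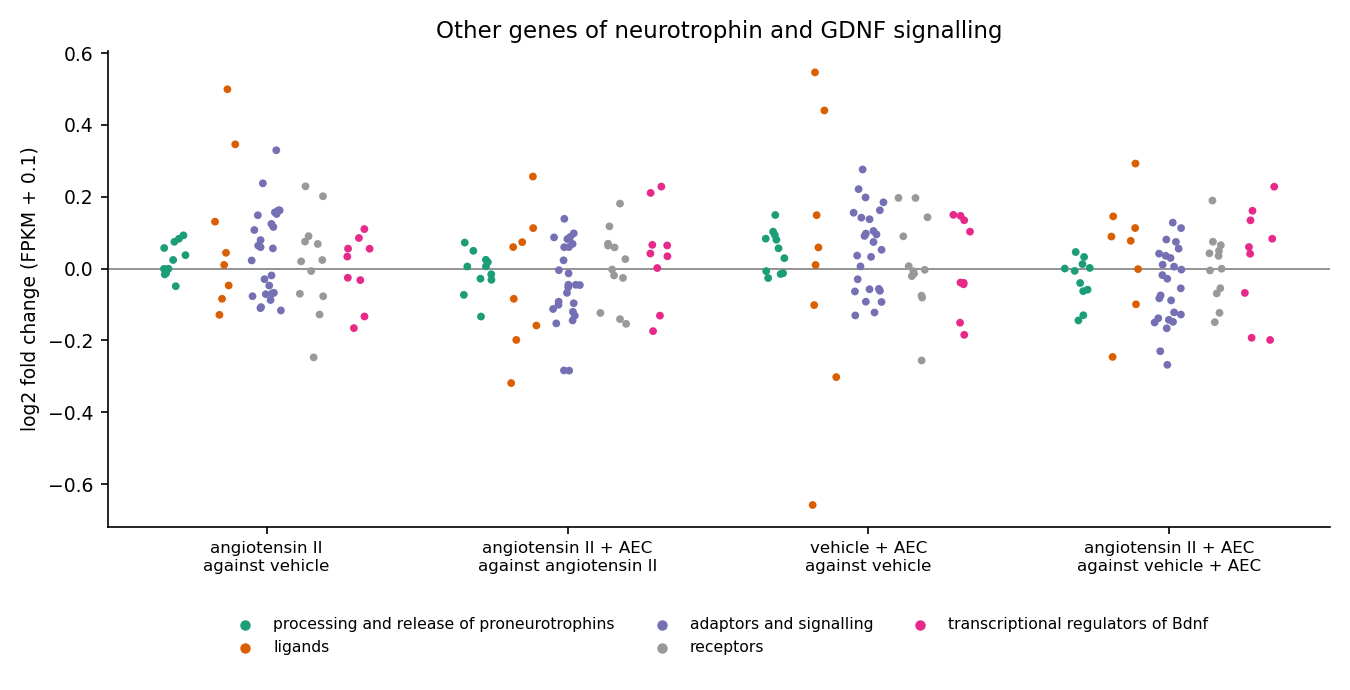
Log2 fold change on FPKM + 0.1 (vertical axis) of the other genes of neurotrophin and GDNF signalling in the 4 comparisons of groups, coloured by role. List genes with an unadjusted p under 0.05 in any contrast are not drawn, and the genes shown scatter on both sides of 0 in each comparison.

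Whether the 6 genes vary together between mice was examined in the 18 libraries of lower total FPKM, because the 24 fall into separate sets. After removing group means, 15 pairs of the 6 genes and 90 relations of a gene with a marker list were computed. Of these 105 relations, 14 had an unadjusted permutation p under 0.05 and 0 an adjusted p under 0.05. Among pairs of the 6 genes, Ntrk2 and Sort1 had the strongest correlation (Pearson r = 0.592, permutation p = 0.00958; Spearman rho = 0.5996, permutation p = 0.0102; adjusted p = 0.201 and 0.179, n = 18), but without the 2 mice farthest from the median of Ntrk2 r was 0.337. Gdnf and Ntrk3 had r = -0.526 (permutation p = 0.0246, adjusted p = 0.320) and rho = -0.368 (permutation p = 0.132, adjusted p = 0.729), and r = -0.362 without the 2 mice farthest on Gdnf. Among the marker lists, Ntrk3 was lower where oligodendrocyte markers were higher (r = -0.666, permutation p = 0.00223, adjusted p = 0.201; rho = -0.606, permutation p = 0.00867, adjusted p = 0.179), with r = -0.450 without the 2 mice farthest on Ntrk3. The same direction was seen for Ntrk3 with microglial markers (r = -0.5995, permutation p = 0.0084, adjusted p = 0.201; rho = -0.604, permutation p = 0.00848, adjusted p = 0.179), with r = -0.536 without the 2 farthest mice. Ntf3 was lower where thalamic markers were higher (r = -0.618, permutation p = 0.00682, adjusted p = 0.201; rho = -0.647, permutation p = 0.00509, adjusted p = 0.179), but r was -0.250 without the 2 farthest mice. Sort1 was lower where hypothalamic markers were higher (r = -0.625, permutation p = 0.00508, adjusted p = 0.201; rho = -0.684, permutation p = 0.00201, adjusted p = 0.179), with r = -0.516 without the 2 farthest mice. For Sort1 with choroid plexus markers r was -0.535 (permutation p = 0.0233, adjusted p = 0.320) and rho -0.618 (permutation p = 0.00782, adjusted p = 0.179), with r = -0.673 without the 2 farthest mice. The other 7 relations of a gene with a list at an unadjusted p under 0.05 were weaker in r, except that of Ntrk3 with cerebellar markers (r = 0.562, permutation p = 0.0149, adjusted p = 0.261; rho = 0.269, permutation p = 0.280, adjusted p = 0.763). None of these relations passed the correction, and single genes of 1 sample share its depth and its dissection.

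The genes with the most similar pattern to each of the 6 over the 24 mice were sought among genes with a mean of at least 1 FPKM, after removing group means. For Ntrk2 they were Dnal1, Rnf24 and Atp2b3, with Pearson r of 0.995 each, and for Sort1 they were Cyfip2, Gpatch2l and Zfp365, with r of 0.992, 0.992 and 0.991. For Ntrk3 they were Mctp1, Frrs1l and Zfp799, with r of 0.974, 0.973 and 0.973. All 9 of these genes were lower in the 6 libraries of high total FPKM, as the 3 receptors were. Within the 18 libraries r fell to between 0.499 and 0.844 for them. For Bdnf they were Gm25604, Stard8 and Utp18 (r = 0.818, 0.776 and 0.729), for Ntf3 Exosc8, Sp2 and Mthfsl (0.780, 0.779 and 0.777) and for Gdnf Gm42847, Vgll4 and Gcdh (0.845, 0.758 and 0.737). These values describe likeness over 24 mice that share 2 library sets, and carry no test.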

How the data were processed

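The authors extracted RNA from brain hemispheres, sequenced poly-T selected mRNA and mapped it to the Ensembl mouse genome (GRCm38 per the submitters' processing notes). They tested genes with DESeq 1.10.1. The aligner, counting program and use of strand are not given in the sources used here. The authors deposited FPKM values per gene and mouse, with gene lengths, names and coordinates.

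Each column was assigned to a mouse by its label. Reads were recovered from the steps of FPKM multiplied by gene length, and 100% of values came out whole (tolerance 0.01 reads). Genes above 0 in at least 6 mice were tested with limma 3.58.1 in R 4.3.3 on log2(FPKM + 0.1), all 4 groups in 1 fit, with a trend and Benjamini-Hochberg adjustment over all 27286 genes. Single genes were also tested by a two-sided exact permutation test, and correlations with 100000 permutations (Python 3.11.15, scipy 1.17.1). Correlations were planned over 24 mice and are given for 18, since the libraries formed 2 sets. In simulated reads of the comparison of angiotensin II with vehicle the fit was checked for recovery of known changes. The simulated reads held no difference between library sets, so the check does not bear on that difference. Its outcome is not given here.

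The 6 genes, the list of 67 and the marker lists were chosen with earlier results of these data known. Named genes are the 6, list genes with an unadjusted p under 0.05 (at most 5) at a mean of at least 1 FPKM or with an adjusted p under 0.05, the 3 most similar genes to each of the 6, and the 2 highest genes of marker lists. Alternatives were pseudocounts of 1 and 0.01, no filter, a mean of at least 1 FPKM, only the compared groups, a replicate block, median ratio scaling, limma voom on the recovered reads, the library set as a term, the 18 libraries alone and each mouse left out. Limits on precision from reads cover counting error only. Mice are separate animals. The values of 1 gene of the list are not reported here, but it is part of the counts.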

Additional observations from a re-analysis of the deposited data

Results flagged for a closer look

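In 7 of the 24 combinations of gene and group, 1 mouse stood apart from the other 5 by Dixon's criterion, which chance meets in about 1 of 20 groups. In angiotensin II replicate 5, Ntrk2 was 22.2 FPKM with the next mouse at 30.19, Ntrk3 was 3.203 FPKM with the next at 3.977, and Sort1 was 41.8 FPKM with the next at 58.81. In vehicle + AEC replicate 6, Ntrk2 was 20 FPKM with the next at 29.84, and Sort1 was 40.25 FPKM with the next at 57.65. Both mice are the only ones of their group among the 6 libraries of high total FPKM. Bdnf in vehicle replicate 5, also one of the 6 libraries, was 2.088 FPKM with the next at 2.956. Gdnf in angiotensin II + AEC replicate 2 was the exception, a high value of 0.4305 FPKM (32 reads) in 1 of the 18 other libraries, with the next at 0.1846 FPKM.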

How the results depend on the processing

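No gene of the 6 and none of the list of 67 had an adjusted p under 0.05 under any alternative. Of 721 fold changes recomputed for the 6 genes, 626 kept their direction and side of an unadjusted p of 0.05, 13 lost the threshold, 5 passed it and 77 changed sign, none of them while under the threshold. Gdnf and Ntf3 rested on 3 to 84 reads per mouse. The cause of the changes below was not tested, except where fewer samples or genes were fitted.

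Same-numbered libraries were more alike than others, but not in every pair, and no label ties the numbers to a shared litter or day, so the replicate number was not used as a block in the values of the report. Of 36 same-numbered pairs of libraries from different groups, 28 had a correlation of deviations over 0.1 (median 0.35, from -0.22 to 0.80, against a median of 0.07 for other pairs). The 6 libraries of high total FPKM were all numbered 5 or 6, and the library set was not removed from these correlations. The part of the library set in this likeness was not tested. A replicate block left the calls of the 6 genes at 0, 0, 0, 1 and 0 in the 5 contrasts. In the list it gave 1 call in angiotensin II + AEC against angiotensin II (Mapk7), 2 in angiotensin II + AEC against vehicle + AEC and 1 for the interaction.

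For Gdnf, calls in vehicle + AEC against vehicle went from 0 to 1 with a pseudocount of 1, with only the compared groups or in the 18 libraries. In angiotensin II + AEC against vehicle + AEC they went from 1 to 0 with a pseudocount of 0.01, a mean of at least 1 FPKM (Gdnf not tested), only the compared groups, the library set as a term or the 18 libraries, and were 0 to 1 with each mouse left out. For the interaction they were 0 to 1 with each mouse left out. Limma voom gave log2 -0.79 (unadjusted p = 0.0317) for angiotensin II + AEC against vehicle + AEC and -0.75 (unadjusted p = 0.149) for the interaction. List calls in angiotensin II against vehicle were 0 at a mean of at least 1 FPKM or with only the compared groups, 2 in the 18 libraries (Cntf and Gfra3) and 0 to 2 with each mouse left out. In angiotensin II + AEC against angiotensin II they were 1 with the set term and 5 in the 18 libraries. In vehicle + AEC against vehicle they were 2 in the 18 libraries and 0 to 1 with each mouse left out. In angiotensin II + AEC against vehicle + AEC they were 0 at a mean of at least 1 FPKM, 2 with the set term, 0 in the 18 libraries and 0 to 1 with each mouse left out. For the interaction they were 2 in the 18 libraries and 0 to 1 with each mouse left out. The share of all genes called under these alternatives is not given here, so whether the list calls exceeded the background was not tested. This holds for the 5 calls in the 18 libraries and for the list calls with the replicate block.

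Log2 values of opposite sign were as follows, in the 4 comparisons of groups and then the interaction. For angiotensin II against vehicle they were -0.073 (Bdnf), -0.18 (Ntf3), 0.20 (Gdnf) and -0.024 (Ntrk2) in the 18 libraries, and 0.0084 for Gdnf with a pseudocount of 1. For angiotensin II + AEC against angiotensin II they were 0.0098 (Bdnf), -0.027 (Ntf3), 0.015 (Gdnf), 0.0066 (Ntrk2) and 0.0024 (Sort1) with the set term, 0.023 (Bdnf), -0.15 (Ntf3), 0.016 (Ntrk2) and 0.014 (Sort1) in the 18 libraries, and 0.0026 for Bdnf with median ratio scaling. For vehicle + AEC against vehicle they were 0.055 (Ntf3) and -0.011 (Ntrk2) with the set term, and -0.0017 (Bdnf), -0.011 (Ntrk2) and -0.0086 (Ntrk3) in the 18 libraries. For angiotensin II + AEC against vehicle + AEC they were 0.023 (Bdnf) and 0.021 (Ntrk2) with the set term, -0.075 (Ntf3), 0.0024 (Ntrk2) and 0.0048 (Ntrk3) in the 18 libraries, and for Bdnf 0.00021 with a pseudocount of 0.01 and 0.0032 with median ratio scaling. For the interaction they were 0.0023 (Bdnf), -0.082 (Ntf3) and 0.017 (Ntrk2) with the set term, and 0.025 (Bdnf) and 0.027 (Ntrk2) in the 18 libraries.

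With each mouse left out, values spanned zero in these ranges. For Bdnf they ran from -0.053 to 0.084 in angiotensin II against vehicle, -0.053 to 0.019 in angiotensin II + AEC against angiotensin II, -0.065 to 0.090 in vehicle + AEC against vehicle and -0.060 to 0.044 in angiotensin II + AEC against vehicle + AEC. For Ntf3 they ran from -0.078 to 0.22, -0.14 to 0.26, -0.15 to 0.079 and -0.035 to 0.31 in the same order. Gdnf ran from -0.11 to 0.17 and -0.24 to 0.080 in the first and second of these, and Ntrk2 from -0.0077 to 0.19 and -0.18 to 0.0018 in the other two. For the interaction, Bdnf ran from -0.10 to 0.053 and Ntf3 from -0.12 to 0.28.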
